A study of Mus musculus with 88 samples.

Results

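Cluster 18 was a group of cells found late in embryoid body differentiation, of which 92 of 114 gave over 1% of their transcript counts to globins. Its members were the cells to which the authors' deposited annotation gave cluster number 18 at clustering resolution 2.5, and they numbered 114 of the 4949 cells kept in the single-cell table. Embryoid bodies (EBs) are aggregates of mouse embryonic stem cells that differentiate into cells of all germ layers once the stem cell factor LIF is withdrawn. Single live cells were sorted into multiwell plates from EBs of 4 genotypes on days 0, 4, 7 and 10, with 1 plate for each genotype and day, so that 16 libraries were made. The genotypes were wild type (WT) and nulls for Eed, Jarid2 or Mtf2 (Eed null, Jarid2 null, Mtf2 null), all labelled as E14 cells. Mtf2 and Jarid2 encode accessory subunits of Polycomb repressive complex 2 (PRC2), which writes the repressive histone mark H3K27me3, and Eed encodes a core subunit of it. Each genotype was 1 cell line. No treatment was given to the cells of these libraries, and all 4 genotypes went through the same culture in serum, first with and then without LIF. A bulk RNA-seq series of EBs from 6 lines on days 0, 2, 4 and 7 was read for the same genes. Its day 0 samples may be monolayer cells, as described further on. So was a bulk series of WT, Mtf2 null and Jarid2 null monolayer cells directed towards lateral mesoderm for up to 48 h. By the authors' methods, these monolayer cells were treated with Activin A, BMP4, CHIR99021 and FGF2, and then with BMP4 and a further compound.

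Primitive red cells are the first blood cells of the mouse embryo and arise from mesoderm in the yolk sac. They are known for embryonic forms of hemoglobin, with zeta globin (Hba-x) on the alpha side and beta H1 (Hbb-bh1) and epsilon-y (Hbb-y) on the beta side, whereas definitive red cells use the adult genes. Their program is run by GATA1, TAL1, LMO2 and KLF1. Near globin, heme and membrane genes, GATA1 binds GATA motifs and KLF1 binds CACC motifs. The same precursors can also give megakaryocytes and macrophages.

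To show the sequence that lies before leading genes of cluster 18, the 150 bases before the RefSeq start of 6 members are printed. They run 5' to 3' from the GRCm38.p6 assembly. The members are 2 embryonic globins, 2 adult globins, a blood group antigen and an erythroid transcription factor. Capitals mark the letters GATAA and also CACCC and CCAAT, searched on both strands, where CACCC and CCAAT can overlap by their shared letters.
Hba-x: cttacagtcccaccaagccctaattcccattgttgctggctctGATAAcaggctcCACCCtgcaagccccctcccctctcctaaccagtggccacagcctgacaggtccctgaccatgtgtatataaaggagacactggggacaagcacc
Hbb-y: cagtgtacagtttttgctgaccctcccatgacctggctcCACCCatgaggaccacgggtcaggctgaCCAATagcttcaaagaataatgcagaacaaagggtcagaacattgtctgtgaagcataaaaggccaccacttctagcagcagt
Hba-a2: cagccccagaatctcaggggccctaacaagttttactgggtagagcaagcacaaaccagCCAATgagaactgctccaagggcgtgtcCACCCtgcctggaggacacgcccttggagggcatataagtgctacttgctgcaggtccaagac
Hbb-bs: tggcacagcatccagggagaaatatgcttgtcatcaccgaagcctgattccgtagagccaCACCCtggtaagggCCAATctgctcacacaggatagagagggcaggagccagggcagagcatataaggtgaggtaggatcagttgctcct
Kel: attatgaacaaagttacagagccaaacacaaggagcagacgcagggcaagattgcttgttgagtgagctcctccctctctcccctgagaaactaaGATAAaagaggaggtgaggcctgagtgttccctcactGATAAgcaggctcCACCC
Klf1: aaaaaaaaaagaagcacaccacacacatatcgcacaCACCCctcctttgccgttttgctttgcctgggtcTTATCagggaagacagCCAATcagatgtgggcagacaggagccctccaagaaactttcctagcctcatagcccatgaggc
The windows were chr11:32276450-32276599 on the plus strand for Hba-x, chr7:103853208-103853357 on the minus strand for Hbb-y and chr11:32296342-32296491 on the plus strand for Hba-a2. Those of Hbb-bs and Kel were chr7:103827929-103828078 and chr6:41704326-41704475, both on the minus strand, and that of Klf1 was chr8:84901832-84901981 on the plus strand. All 6 windows held CACCC, which 37.4% of all 32851 promoter windows of this length also held. That of Kel lay 5 to 1 bases before the start used. This stretch is inside Kel as placed by its gene position, chr6:41686329-41704334. CCAAT was found in the windows of Hbb-y, Hba-a2, Hbb-bs and Klf1, against 24.5% of all windows. GATAA was found once for Hba-x, 2 times for Kel and once on the opposite strand for Klf1, against 13.3% of all windows. GATAA and CACCC stood together in 3.99% of all windows, and all 3 motifs in 0.925%. These matches describe letters only. Of the other members that results turn on, Hbb-bh1, Hbb-bh0 and Slc4a1 had no sequence in the table used.

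The genes of the alpha cluster lie on chromosome 11, with Hba-x at chr11:32276600-32278116, Hba-a1 at chr11:32283672-32284486 and Hba-a2 at chr11:32296492-32297310. The beta cluster lies on chromosome 7, with Hbb-bt at chr7:103812524-103813923, Hbb-bs at chr7:103826523-103827928, Hbb-bh1 at chr7:103841638-103843162 and Hbb-y at chr7:103851754-103853207. Hbb-bh0 is classed as a pseudogene in this C57BL/6J annotation and carries a position numbered on another scaffold, so no coordinate is given for it. Hba-a1 and Hba-a2 are near-identical copies of each other, as are Hbb-bs and Hbb-bt, and the split of reads within each pair is uncertain.

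Cluster 18 was made almost wholly of late cells. On day 0, none of 1364 cells belonged to it, and on day 4 none of 1303 did. On day 7 it held 11 of 1281 cells (0.859%) and on day 10 it held 103 of 1001 cells (10.3%). Among the day 10 libraries the share was lower in the 3 mutants than in WT, with 63 of 214 WT cells (29.4%, 95% Clopper-Pearson interval 23.4 to 36.04) and 28 of 321 Mtf2 null cells (8.72%, 5.87 to 12.4). Jarid2 null EBs gave 9 of 264 cells (3.41%, 1.57 to 6.37) and Eed null EBs gave 3 of 202 (1.49%, 0.307 to 4.28). The WT interval lay above the other 3. The Jarid2 null interval overlapped both that of Mtf2 null and that of Eed null. On day 7 the cluster took 6 of 316 WT cells (1.90%), 4 of 344 Mtf2 null cells (1.16%), 1 of 302 Jarid2 null cells (0.331%) and 0 of 319 Eed null cells, which allows a share of up to 0.940% by a limit of 3 counts (Clopper-Pearson upper end 1.15%). All these intervals cover counting error only. With 1 library for each genotype and day, no test between genotypes could be made, and genotype, cell line and plate cannot be told apart.

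**Figure D1:**
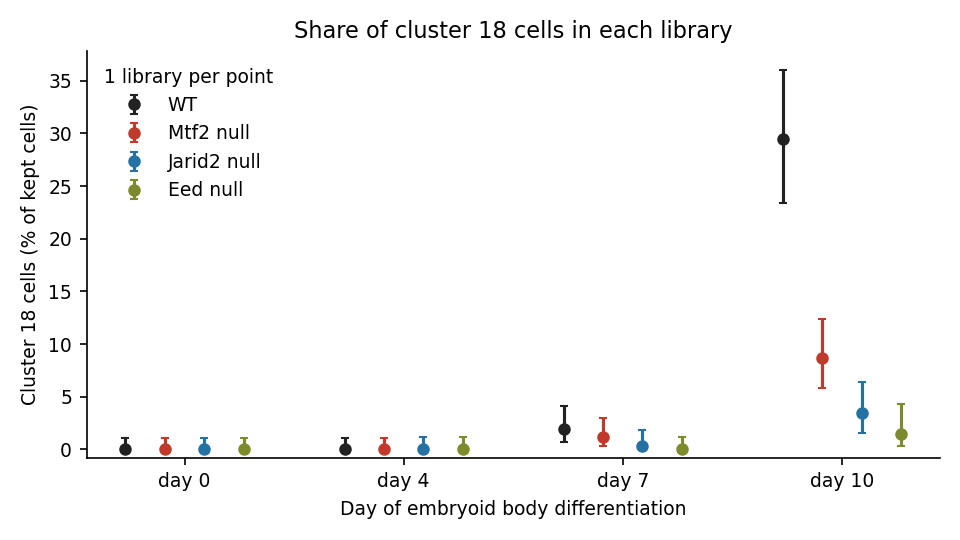
Share of kept cells that belonged to cluster 18 (y axis, percent) against the day of EB differentiation (x axis) for the 4 genotypes. Each point is 1 library with its 95% Clopper-Pearson interval, and WT day 10 stands highest at 29.4% while all libraries of days 0 and 4 are at 0.

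Over all days, WT gave 69 of 1201 cells (5.75%), Mtf2 null 32 of 1343 (2.38%), Jarid2 null 10 of 1224 (0.817%) and Eed null 3 of 1181 (0.254%). Levels pooled over cluster 18 rest mostly on the WT day 10 library. Cells of cluster 18 held a median of 6004 unique molecular identifiers (UMIs, each counting 1 captured transcript) with a range of 1201 to 29230, against a median of 6673 in all other cells. They expressed a median of 2369 genes. Because the clusters were built from the expression of these same cells, the gene levels below describe the cluster and were not tested. A gene was counted as higher or lower when the log2 ratio of its pooled UMI level (CPM, the UMIs of a gene scaled to a common total of all genes) passed 2 in size, among genes with at least 10 UMIs in cluster 18 or whose level in the compared cells would give at least 10.

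The Mtf2 label was checked in the cells themselves. In the day 10 cells of cluster 18, Mtf2 stood at 186 CPM in WT (87 UMIs, 95% Poisson interval 149 to 229) and at 24.9 CPM in Mtf2 null (5 UMIs, 8.09 to 58.2). The 4 day 7 cells labelled Mtf2 null went against their label. They held 11 Mtf2 UMIs in 3 of the 4 cells, or 293 CPM (146 to 525), whereas the other cells of that library stood at 57.4 CPM (48.2 to 67.9) and the other WT day 7 cells at 386 CPM. They are called the day 7 cells labelled Mtf2 null from here on. Eed had 0 UMIs in the 3 Eed null cells of day 10, and 3.79 CPM in the other cells of that library against 117 CPM in those of WT. Jarid2 stood at 126 CPM in Jarid2 null and 158 CPM in WT cluster 18 cells of day 10, and the 3' tag that was counted may lie outside the deleted part, so that this level does not check the label.

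Against all other cells, 467 of 9815 genes (4.76%) were higher in cluster 18 and 913 (9.3%) were lower. The globins led. Hbb-bh1 stood at 19943 CPM against 12.5 CPM (log2 ratio 10.64), Hba-x at 29945 CPM against 50.7 CPM (9.21) and Hbb-bh0 reached a log2 ratio of 10.95. All 4 measured embryonic globins and all 4 measured adult globins were higher. Other leading genes were Csf2rb, the shared beta chain of cytokine receptors (log2 ratio 9.82), and Epb42, a band 4.2 membrane protein (9.61). Alas2, the first and rate-limiting enzyme of heme synthesis in red cells, stood at 917 CPM against 1.22 CPM (9.55) and had a UMI in 71.9% of cluster 18 cells but in 0.869% of the others. Trim10 (9.19), Kel (8.83) and Ermap (8.69) followed. Plek (9.16) and Sla (9.04) stood as high, but 380 of 421 Plek UMIs and 144 of 157 Sla UMIs lay in the 34 cells of finer cluster 41, a part of cluster 18 that is described further on.

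The genes that were lowest against all other cells belonged to pluripotent and early cells. They included Dnmt3l, a cofactor of DNA methylation (log2 ratio -7.12), Esrrb (-6.60), Nr0b1 (-6.48), Dppa5a (-6.46) and Lefty2 (-6.40). Of the 12 pluripotency genes of the list, 12 were lower. Pou5f1, which encodes OCT4, had 2 UMIs in the whole cluster against 68.9 CPM elsewhere (-4.90, -7.95 to -3.05). Day and genotype differ between these sets of cells, so the comparison was repeated within libraries.

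Against the other cells of the same libraries, 388 of 9837 genes (3.94%) were higher and 1085 (11.0%) were lower. The higher genes were again led by globins, and 16 of 20 red cell membrane genes, 12 of 19 erythroid transcription factors and 10 of 14 heme synthesis genes were among them, with none of these lists' members lower. Genes of the surrounding mesodermal cells were low, among them Lef1, a Wnt effector (log2 ratio -6.62), Lamb1, a basement membrane laminin (-6.61), and Id3, an inhibitor of differentiation factors (-5.001). Of the cardiac and lateral mesoderm list, 9 of 10 were lower.

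The transcription factors of the red cell program were present at modest levels. GATA1 is the master regulator of red cell genes, and Gata1 stood at 210 CPM against 2.02 CPM in all other cells (log2 ratio 6.70, 6.31 to 7.11). By library it stood at 244 CPM in WT day 7, 160 in WT day 10, 269 in Mtf2 null day 10, 232 in Jarid2 null day 10 and 196 in Eed null day 10, with 453 CPM in the day 7 cells labelled Mtf2 null. No library with at least 3 members lacked it, and the other cells of these libraries lay between 0 and 3.57 CPM. Klf1, which drives globin and membrane genes, stood at 148 CPM against 0.451 CPM (8.36, 7.62 to 9.18) and lay between 107 and 171 CPM in the same 6 libraries. Tal1 (337 CPM, 5.44) and Lmo2 (239 CPM, 4.53) belong to the GATA1 complex, as does Zfpm1 (4.75), while their partner Ldb1 differed little (0.41). Nfe2 (7.77) and Gfi1b (7.05), further erythroid and megakaryocytic factors, were also higher. Gata2, Bcl11a, Sox6, Myb, Klf3 and Foxo3 lay within 1 log2 unit of the other cells. In all, 11 of 18 factors were higher and 0 were lower.

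The heme pathway was higher along nearly its whole length. From Alas2 onwards, the log2 ratios against all other cells were 2.73 for Alad, 3.75 for Uros, 2.63 for Urod, 4.03 for Cpox, 3.33 for Ppox and 3.49 for Fech, which inserts the iron. The mitochondrial carriers Abcb10 (3.53) and Tmem14c (2.86) were higher too. Alas1, the housekeeping form of the first enzyme, differed little (-0.10), and Hmox1, which breaks heme down, stood lower without passing the limit (-1.80). Heme synthesis genes numbered 10 higher and 0 lower of 14. Of the iron genes, 2 of 10 were higher. These were Slc25a37, the mitochondrial iron importer mitoferrin (1090 CPM against 20.5, log2 ratio 5.73), and Glrx5, an iron-sulfur cluster protein (2.48). Tfrc, the transferrin receptor, stood at 1828 CPM against 459 CPM (1.99), just short of the limit.

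The red cell skeleton and surface genes were higher for 16 of the 21 membrane genes that passed the UMI minimum and lower for 0. Sptb, the beta spectrin, had a log2 ratio of 5.20, and Ank1, which ties spectrin to the membrane, had 6.91. Slc4a1, the band 3 anion exchanger, stood at 207 CPM against 0.716 CPM (8.17), Rhag at 152 CPM (7.73) and Add2 at 146 CPM (7.17). Slc2a1, the glucose transporter GLUT1, stood lower without passing the limit (228 CPM against 347 CPM, -0.61). Of the enzymes and maturation genes, 12 of 17 were higher, among them Hemgn (9.14), the carbonic anhydrase Car2 (2463 CPM against 270 CPM, 3.19) and Blvrb (3.53). Epor, the erythropoietin receptor, stood at 181 CPM against 5.92 CPM (4.94) and its kinase Jak2 at 63.5 CPM (2.69). Kit, the stem cell factor receptor of early progenitors, stood at 35.8 CPM against 44.6 CPM (-0.32). The erythropoietin and Kit list counted 5 higher and 1 lower of 8, the lower gene being Socs3 (-3.84).

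Few genes of the cell cycle passed the limit against all other cells. None of 20 genes of the G2 and M phase list passed it in either direction, and 1 of 20 S phase genes was lower, beside 9.3% of all genes. Top2a stood at 1173 CPM (log2 ratio -0.01) and Mki67 at 219 CPM against 80.3 CPM (1.45). Of the PRC2 list, 1 of 10 genes was lower, a share near that of all genes, and this was Epop (-2.35), while Eed (-0.9997), Mtf2 (-1.20) and Jarid2 (-1.47) stood lower without passing the limit. Ribosomal protein genes took 6.29% of UMIs in cluster 18 and 5.32% in other cells.

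The cluster was then set against 2 clusters of the same days. Cluster 19 held 57 cells with endothelial genes, and against it 393 of 9895 genes (3.97%) were higher in cluster 18 and 1048 (10.6%) were lower. All 20 endothelial genes that passed the UMI minimum were lower in cluster 18, such as Emcn (log2 ratio -7.03), Cdh5, the junctional VE-cadherin (-6.74), Ramp2 (-6.57) and the VEGF receptor gene Kdr (63.5 CPM against 1250 CPM, -4.30). The clusters shared part of the early blood and vessel program. Tal1 stood at 337 CPM in both, and Lmo2 at 239 CPM in cluster 18 and 283 CPM in cluster 19. Gata1 had 0 UMIs in cluster 19, so that it was at least 4.89 log2 units higher in cluster 18, and Klf1 was likewise at 0 (at least 4.39). Gata2 (-2.89) and Kit (-2.32), both used in blood precursors, were lower in cluster 18. Hbb-bh1 (8.96) was higher, and so was Alas2 (8.60, 6.12 to 13.91), which had 1 UMI in cluster 19.

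Cluster 4 was the largest of the mesodermal clusters of days 7 and 10, with 324 cells. Its genotypes also differed from those of cluster 18, with 32 WT and 79 Mtf2 null cells of day 7 and 90 WT and 80 Mtf2 null cells of day 10. Against it, 477 of 9857 genes (4.84%) were higher in cluster 18 and 1059 (10.7%) were lower. The lower genes held all 12 members of the cardiac and lateral mesoderm list, with Pdgfra, a receptor of mesenchymal cells, at -5.99, Bmp4 at -5.90 and Hand1 at -4.95. Lef1 (-6.68), Pitx1 (-6.62), Kitl (-6.10) and the smooth muscle gene Tagln (-6.02) led the lower side. Klf1 (8.33) and Nfe2 (6.98) were among the higher genes. Gata1, Klf1, Alas2, Slc4a1 and all 8 globins were higher against both clusters. The list of erythroid transcription factors differed more from cluster 4, with 13 higher and 1 lower of 19 (median log2 ratio 3.86), than from cluster 19, with 7 higher and 1 lower of 19 (median 0.82). The lower factor was Sox6 (-2.41) in the first and Gata2 in the second. The erythropoietin and Kit list counted 2 higher and 0 lower of 8 against cluster 4, and 2 higher and 1 lower of 9 against cluster 19.

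**Figure D2:**
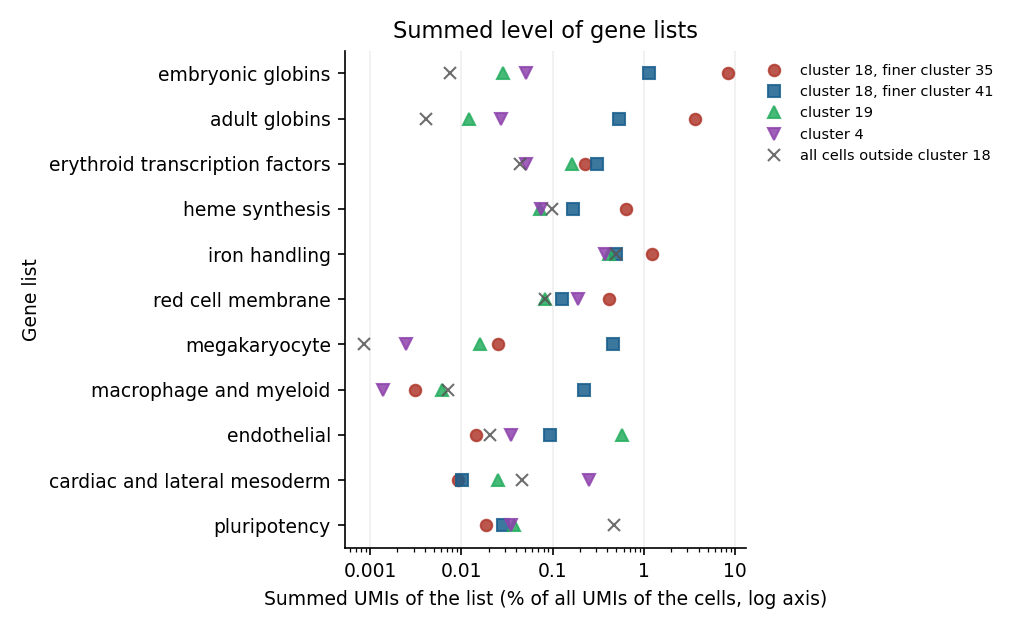
Summed UMIs of each gene list as a percentage of all UMIs (x axis, log scale) for the parts of cluster 18, clusters 19 and 4, and all other cells. Embryonic globins reach 8.41% in finer cluster 35, against 0.0288% in cluster 19 and 0.0512% in cluster 4.

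Hemoglobin transcripts took 76752 of 866115 UMIs, or 8.86% (8.80 to 8.92), in cluster 18. The share varied widely among its cells. The lowest cell had 0%, the median was 6.86% and the highest was 43.7%, with 92 of 114 cells above 1% and 71 above 5%. By library, the pooled share was 2.89% in the 6 WT day 7 cells, 8.89% in the 63 WT day 10 cells, 12.5% in the 28 Mtf2 null day 10 cells and 6.64% in the 9 Jarid2 null day 10 cells. It was 1.54% in the 3 Eed null cells of day 10 and 6.11% in the 4 day 7 cells labelled Mtf2 null, and the 1 Jarid2 null cell of day 7 had 2 globin UMIs. The ranges of single cells overlapped between WT (0.134% to 37.9%, median 7.11%) and Mtf2 null (0.0181% to 43.7%, median 13.3%) on day 10.

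Globin UMIs were also found in wells of other clusters, at a level that followed the library. The other cells of WT day 10 held 0.206% globin UMIs, those of Mtf2 null day 10 0.0785%, those of Jarid2 null day 10 0.0248% and those of Eed null day 10 0.00197%. Day 0 cells held 0.000111%. Among the other WT day 10 cells, 98.7% had a Hba-x UMI and 63.6% had a Hbb-bh1 UMI, so that a single globin UMI did not separate the cells. After thinning each cell to 2500 UMIs, 88.7% of 106 cluster 18 cells and 8.32% of 4351 other cells had a Hba-x UMI, and 37.7% and 0.46% had a Gata1 UMI. Without thinning these shares were 92.1% and 13.7% for Hba-x and 62.3% and 1.32% for Gata1.

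**Figure D3:**
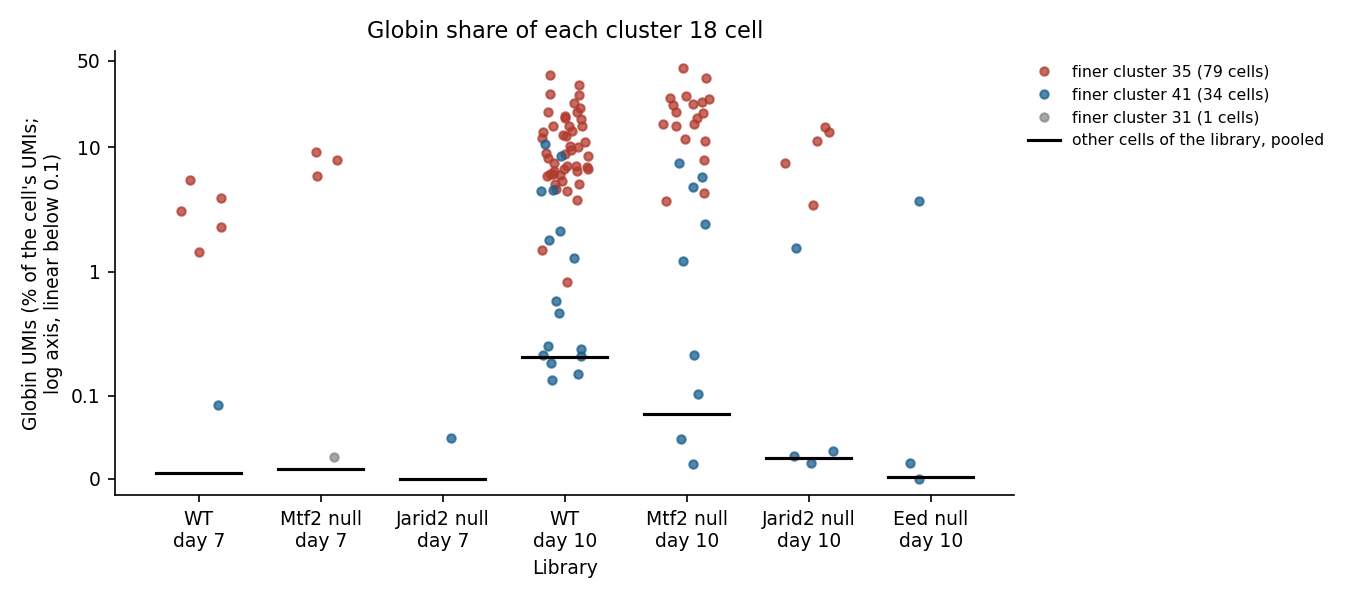
Globin UMIs as a percentage of the UMIs of each cell of cluster 18 (y axis, log scale that is linear below 0.1) by library (x axis). Points are cells coloured by the authors' finer cluster, black lines are the pooled share of the other cells of the library, and the finer cluster 35 cells lie at or above 0.819% in every library.

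The embryonic genes dominated the hemoglobin of cluster 18. Hba-x gave 33.8% of globin UMIs and Hbb-bh1 22.5%, followed by Hba-a1 with 14.8%, Hba-a2 with 14.1%, Hbb-y with 10.2% and Hbb-bh0 with 3.42%. The adult beta genes Hbb-bs (0.935%) and Hbb-bt (0.228%) were rare. Embryonic genes made up 96.9% (96.7 to 97.1) of the beta-like UMIs measured. The listed adult beta genes Hbb-b1 and Hbb-b2 were not in the kept single-cell table, so all adult beta shares leave them out. Zeta globin made up 53.9% of the alpha-like UMIs, and 1.68 alpha-like UMIs were counted for each beta-like one. As UMIs are counted at transcript ends, these shares compare molecules and do not depend on transcript length.

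The 2 days differed in their beta-like genes in WT. In the 6 WT day 7 cells, with 1186 globin UMIs, Hbb-bh1 gave 46.5% and Hbb-y 0.0843%, which was 1 UMI. In the 63 WT day 10 cells, with 41549 globin UMIs, Hbb-bh1 gave 20.5% and Hbb-y 10.7%. In CPM, Hbb-y was 24.4 in the first and 9488 in the second library, while Hbb-bh1 was 13449 and 18205. The day 7 cells labelled Mtf2 null did not share this profile, with Hbb-y at 4.49% of 2292 globin UMIs. With 1 library on each day, day and plate cannot be told apart.

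**Figure D4:**
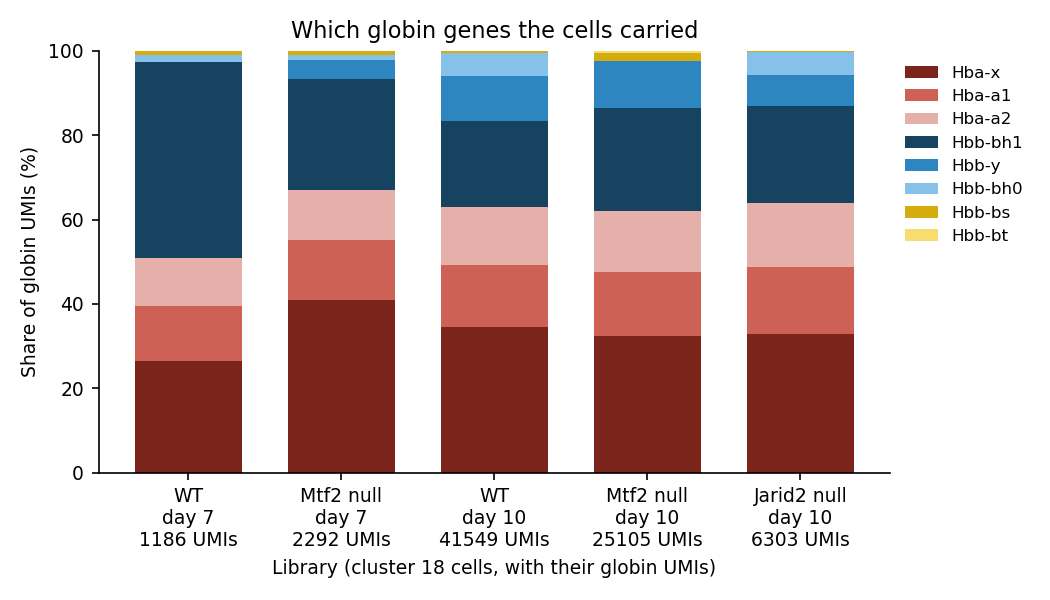
Share of globin UMIs that each globin gene took (y axis, percent, stacked bars summing to 100) in the cluster 18 cells of each library (x axis, with the number of globin UMIs). Hbb-y is almost missing in WT day 7, and Hbb-bh0 is almost missing in Mtf2 null day 10 with 0.0438%.

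Between the day 10 libraries, Hbb-bh0 differed most among the globins. It had 2216 UMIs (4739 CPM) in WT, 345 UMIs (3634 CPM) in Jarid2 null and 11 UMIs (54.8 CPM) in Mtf2 null, a log2 ratio of -6.43 (-7.44 to -5.59) of Mtf2 null over WT. It took 5.33% of globin UMIs in WT, 5.47% in Jarid2 null and 0.0438% in Mtf2 null. The other cells of Mtf2 null day 10 showed the same low share (0.065% of 1538 globin UMIs), whereas those of WT had 2.04% and those of Jarid2 null 3.20%. In the day 7 cells labelled Mtf2 null, Hbb-bh0 took 1.35%, or 31 UMIs, close to the 1.69% of WT day 7. The adult beta genes that were measured went the other way. Hbb-bs had 199 UMIs (426 CPM) in WT and 473 UMIs (2358 CPM) in Mtf2 null (2.47, 2.23 to 2.72), and Hbb-bt had 53 and 117 UMIs (2.36, 1.88 to 2.86). Hbb-bs and Hbb-bt together were 1.63% of the measured beta-like UMIs in WT, 6.19% in Mtf2 null and 0.837% in Jarid2 null.

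Other red cell genes were compared between the same libraries. Across 6813 genes compared, 440 (6.46%) lay above a log2 ratio of 1 and 1038 (15.2%) below -1 for Mtf2 null over WT, with a median of -0.18. Alas2 stood at 864, 1341 and 622 CPM in WT, Mtf2 null and Jarid2 null, and Slc4a1 at 237, 219 and 42.1 CPM, the last from 4 UMIs. Of 20 red cell membrane genes, 0 were above 1 and 3 below -1 in Mtf2 null, with a median of -0.50. In Jarid2 null, 10 of 20 were below -1 and the median was -0.94, beside 16.0% of all 6511 genes below -1 and a median of -0.06. Only 9 Jarid2 null cells stand behind these values, of which 4 lay in the globin-poor finer cluster 41 described next. Itgb3, a platelet integrin, stood at 116 CPM in WT, 498 in Mtf2 null (2.11, 1.62 to 2.62) and 337 in Jarid2 null (1.55). Of its 198 UMIs in cluster 18, 142 lay in finer cluster 41. That part gave 107851 of 467622 UMIs in WT, 80469 of 200626 in Mtf2 null and 38602 of 94931 in Jarid2 null. Genotype and make-up by finer cluster are thus mixed in these Itgb3 values.

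Cluster 18 was not uniform. At the authors' finer resolution it fell into finer clusters 35, with 79 cells, and 41, with 34 cells, while 1 cell lay in finer cluster 31. This split was looked at after values had been seen. Of the day 10 cells, finer cluster 35 took 47 from WT, 19 from Mtf2 null and 5 from Jarid2 null, and finer cluster 41 held 16, 9 and 4 of them together with all 3 Eed null cells. The globin share was 12.0% in finer cluster 35 (cells from 0.819% to 43.7%, median 10.2%) and 1.67% in finer cluster 41 (0% to 10.6%, median 0.245%). By the fixed markers, finer cluster 35 was primitive erythroid-like. Hba-x, Hbb-bh1 and Hbb-y stood above the adult beta genes Hbb-bs and Hbb-bt, and Alas2 (1240 CPM) and Klf1 (195 CPM) were present. This contrast leaves out the adult alpha genes. Hba-a1 and Hba-a2 took 14.8% and 14.1% of the globin UMIs of finer cluster 35, below Hba-x and Hbb-bh1 but above Hbb-y with 10.3%. Zeta globin made up 54.7% of its alpha-like UMIs. Gata1 was alike in both, with 215 CPM in finer cluster 35 and 200 CPM in finer cluster 41, whereas Klf1 was at 39.3 CPM in the latter. Slc4a1 had 178 UMIs in finer cluster 35 and 1 UMI in finer cluster 41 (log2 ratio 6.23), and Slc25a37 differed by 5.30 and Kel by 4.92.

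Finer cluster 41 carried megakaryocyte and myeloid genes and was left without a cell type name. Pf4, the platelet factor, had 337 UMIs there and 11 in finer cluster 35 (log2 ratio -6.18 of 35 over 41), and Plek, a platelet signalling protein, had a UMI in 32 of its 34 cells. Itga2b (-2.47) and Gp1ba (-5.15) were higher in finer cluster 41 as well. So were the myeloid genes Fcer1g (139 UMIs against 0), Spi1 (-5.18), Laptm5 (-6.08) and Csf1r (-6.15). Of its 34 cells, 15 had at least 5 UMIs of the megakaryocyte list alone, 1 of the myeloid list alone, 16 of both and 2 of neither. A few cells carried much of the signal, since 1 cell held 184 of 186 Ppbp UMIs (98.9%), 171 of 348 Pf4 UMIs (49.1%) and 29 of 35 Cd14 UMIs. Megakaryocyte genes summed to 0.465% of UMIs in finer cluster 41, 0.0253% in finer cluster 35 and 0.016% in cluster 19. Myeloid genes summed to 0.221%, 0.00315% and 0.00613%. Runx1, a factor of blood emergence, stood at 687 CPM in finer cluster 41 and 181 CPM in finer cluster 35.

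Within finer cluster 35 the day 10 differences in globins stayed. The pooled globin share was 11.0% in 47 WT cells (0.819% to 37.9%), 19.5% in 19 Mtf2 null cells (3.69% to 43.7%) and 10.7% in 5 Jarid2 null cells (3.47% to 14.6%), so that the cells of all 3 overlapped. The log2 ratio of Mtf2 null over WT was -6.01 (-7.02 to -5.17) for Hbb-bh0, 3.48 (3.17 to 3.80) for Hbb-bs and 3.97 (3.29 to 4.72) for Hbb-bt, and 0.78 for Hba-x, 1.02 for Hbb-bh1 and 0.80 for Hbb-y. Runx1 was at -2.14 (-3.63 to -0.95). For Jarid2 null over WT, Hbb-bh0 was at 0.05 (-0.12 to 0.21) and Slc4a1 at -2.53 (-4.83 to -0.95). All these intervals cover counting error only.

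The bulk EB series gave an independent measurement of the same genes without cell sorting by type. It held 24 samples, from the WT lines J1, JM8 and Pcl1-3 WT and from lines labelled Eed null, Jarid2 null and Mtf2 null, with 1 sample for each line and day. J1, JM8 and Pcl1-3 WT were the matched backgrounds of the Eed, Jarid2 and Mtf2 mutants. The levels of the targeted genes did not separate the labels. On day 7, Mtf2 stood at 166 CPM in the line labelled Mtf2 null, within the 104 to 385 CPM of the other lines, Jarid2 stood at 223 CPM in the line labelled Jarid2 null, and Eed stood at 58.8 CPM in the line labelled Eed null and 52.9 CPM in J1. On day 0, Mtf2 was lowest in the sample labelled Jarid2 null (129 CPM) and stood at 324 CPM in the one labelled Mtf2 null. In bulk samples, fewer cells of a type and less RNA per cell cannot be told apart. At day 0, Hba-x, Hbb-bh1 and Hbb-y were at 0 CPM in all 6 lines. At day 7, Hbb-bh1 stood at 3214 CPM in J1, 632 in JM8, 341 in Jarid2 null, 2.31 in Pcl1-3 WT, 0.388 in Mtf2 null and 0.215 in Eed null. J1, JM8 and Jarid2 null thus lay far above the other 3 lines. Hba-x had the same upper 3 lines, with 2624, 253 and 109 CPM, against 0.88 in Mtf2 null, 0.76 in Eed null and 0 in Pcl1-3 WT. Hbb-y was at 503, 135 and 29.1 CPM in the upper 3 and at 0 in the other 3.

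**Figure D5:**
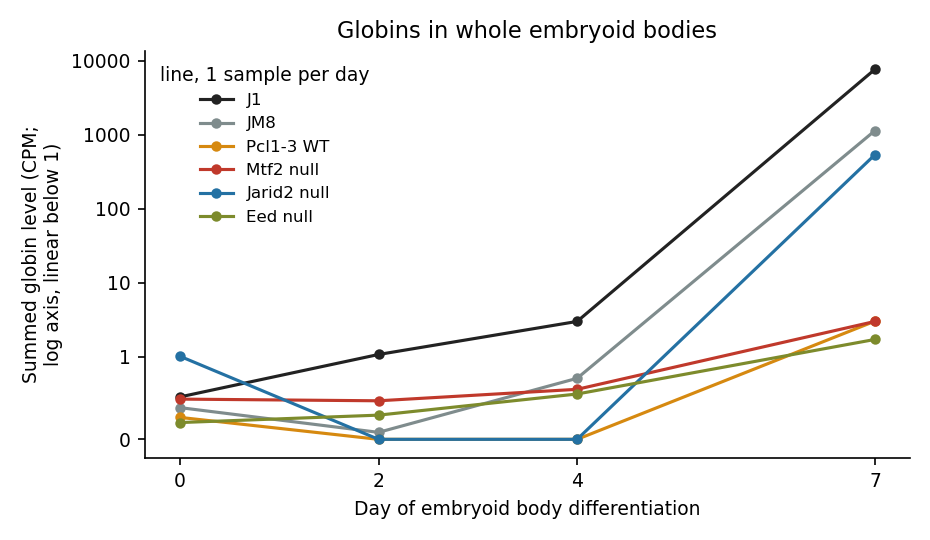
Summed CPM of the globin genes (y axis, log scale that is linear below 1) in bulk EBs against day of differentiation (x axis) for the 6 lines. Each point is 1 sample, and J1, JM8 and Jarid2 null stand above the other 3 lines on day 7.

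Hbb-bh0 did not follow the level of the other globins across lines. At day 7 it stood at 185 CPM in J1 and 15.8 CPM in Jarid2 null but at 0 in JM8, whose Hbb-y (135 CPM) was higher than that of Jarid2 null (29.1 CPM). JM8, the line with Hbb-bh0 at 0 beside high Hbb-bh1, was a WT line. Whether the lines carry the same beta-globin haplotype was not tested.

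Day 7 was compared with day 0 across the 6 lines, with the line as a block, by limma on log2 CPM with Benjamini-Hochberg adjustment over 15850 genes. Of these, 3629 (22.9%) were higher and 3383 (21.3%) were lower at day 7. The deposited column names mark the day 0 samples as mono, which may stand for monolayer, and the later ones as eb. All sample titles read eb. If the names hold, culture format and day cannot be told apart in this comparison. The fit held the samples of days 2 and 4 as well, which also entered its variance. A gene entered the test when it reached 1 CPM in 4 of all 24 samples. Hbb-bh1 did so without any day 0 sample, and without J1 it no longer did, so that no test is given for it. Its fitted log2 difference of 6.33 (SE 1.35) depends on the prior count of 2, since every day 0 sample was at 0. Hba-a2 stood at 616.3 CPM in J1, 63.6 in JM8, 25.6 in Jarid2 null and 0.373 to 1.35 in the other lines on day 7. It entered the test through these samples and 1 day 0 sample at 1.02 CPM, so that its fitted log2 difference of 4.15 is likewise given without a test. Tal1 rose by 2.93 (adjusted p = 0.00177 by limma), with 82.0, 32.2 and 26.5 CPM in J1, JM8 and Jarid2 null against 1.63 to 2.90 in the others. Gata1 did not pass (log2 fold change 0.45, adjusted p = 0.562 by limma), and its day 7 levels were 38.7, 13.4 and 5.92 CPM in the upper 3 lines and 0.922 to 2.28 CPM in the others, while Eed null had 15.1 CPM at day 0. Klf1 did not reach 1 CPM in 4 samples and was not tested, with 42.97 CPM in J1 on day 7. The other globins did not pass the filter. Without the 2 day 0 samples labelled Mtf2 null and Jarid2 null, an alternative added after seeing the data, Tal1 stood at 3.05 (adjusted p = 0.00736 by limma) and Gata1 at 0.52 (adjusted p = 0.599 by limma).

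By list, 10 of 18 erythroid transcription factors rose and 1 fell, beside the background shares of 22.9% and 21.3%. Heme synthesis genes counted 3 higher and 1 lower of 14, iron genes 2 and 2 of 12, red cell membrane genes 8 and 2 of 17, and red cell enzymes 4 and 1 of 16. Of other lists, 12 of 19 endothelial and 9 of 12 cardiac genes rose, and 11 of 12 pluripotency genes fell. These counts describe whole cultures, in which many cell types appear between the 2 days and the culture format may differ as well. A gene that is low at day 0 could enter these counts only where it reached the CPM limit in samples of later days. The summed megakaryocyte list stood at 526 CPM in J1 and 26.1 to 133 CPM in the other lines on day 7, and its part in the result was not tested.

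In the monolayer series, cells of 3 genotypes were directed towards lateral mesoderm and read at 0, 5, 24 and 48 h in duplicate. Hba-x and Hbb-bh1 had 0 counts in all 24 libraries. No globin passed the filter. In WT, 1022 of 18361 genes (5.57%) were higher at 48 h than in undifferentiated cells and 565 (3.08%) were lower, by edgeR's quasi-likelihood test where a call needed a log2 fold change beyond 1 in either direction and an adjusted p under 0.001. Gata2, an early blood and vessel factor, rose by 2.25 from 4.04 and 2.98 to 15.7 and 17.7 CPM, Zfpm1 rose by 1.12 and Foxo3 by 1.29, while E2f2 changed by -1.17. These were 3 higher and 1 lower of 16 erythroid factors. Sptb, the beta spectrin, rose by 2.27, whereas Epor (-2.38), Tfrc (-1.86) and Kit (-1.23) fell. Without replicate 2 of undifferentiated WT, Gata2 (2.04, adjusted p = 0.0032 by edgeR) and Zfpm1 (0.95) no longer passed, and Epor no longer passed without that replicate, without either 48 h replicate, or by DESeq2.

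Between genotypes at 48 h, 690 genes (3.76%) were higher and 562 (3.06%) lower in Mtf2 null than in WT by edgeR, and 26 (0.142%) and 5 (0.0272%) in Jarid2 null. Mtf2 itself was lower in Mtf2 null (30.2 and 33.7 CPM against 292 and 206, log2 fold change -2.96). Among the genes of cluster 18, Runx1 was higher in Mtf2 null by 3.73 and the heme enzyme gene Uros by 1.14. Runx1 was the 1 of 16 erythroid factors that passed. Sptb (-1.30), Bnip3l (-1.21), which clears mitochondria, and Hebp1 (-1.19), a heme-binding protein, were lower, although Sptb and Hebp1 no longer passed without replicate 2 of either genotype, Hebp1 without Mtf2 null replicate 1 and Bnip3l without WT replicate 1. By list, 1 of 14 membrane genes was higher and 1 lower, and 1 of 14 enzyme and maturation genes was higher and 2 lower. In Jarid2 null, none of the globin, erythroid, heme, iron or membrane list members passed, beside 0.142% of all genes higher. The duplicates are described as technical, so these tests measure the spread between libraries and not between cultures.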

How the data were processed

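Single-cell data were UMI counts per gene and well, deposited by the authors with a table of cluster numbers. The authors sorted live cells by SORT-seq (a CEL-Seq2 protocol that tags transcript 3' ends), mapped reads with Bowtie2 to GRCm38/mm10, counted them with HTSeq, removed wells with fewer than 500 genes and clustered with library effects regressed out. No doublet caller is named in the sources used here. Bulk EB values were deposited as signal, gene counts that the authors divided by size factors in DESeq2. Whole reads were recovered for 46 of 46 columns within 0.02, and where a line had more than 1 column for a day their mean was used. Mesoderm values were estimated counts made with Salmon and deposited by the authors, and were rounded here.

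UMIs were pooled and divided by their total (CPM). Intervals were exact conditional Poisson for log2 ratios and 95% Clopper-Pearson for shares, counting error only. A count of 0 was bounded with 3 counts. Cells were thinned to 2500 UMIs for shares of cells. Bulk EB samples were tested with limma 3.58.1 (trend, log2 CPM with prior count 2, TMM, genes at 1 CPM in 4 samples, adjusted p under 0.05), and the mesoderm libraries with edgeR 4.0.16 (quasi-likelihood, TMM, filterByExpr). DESeq2 1.42.0 was an alternative. Scripts ran in R 4.3.3 and Python 3.11.15 and were tested on simulated data. Kept cells held 1201 to 29230 UMIs in cluster 18, and bulk EB columns 3005707 to 22944105 reads.

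The genes named were the members of gene lists (globins, erythroid factors, heme, iron, membrane, enzymes, cytokine signalling, megakaryocyte, myeloid, endothelial, cardiac, pluripotency, endoderm, neural, cell cycle and PRC2) and the genes of largest log2 ratio with a UMI in at least 25% of the higher cells. Some listed genes are counted in their list but not reported here by name. The members and lists were chosen with earlier results of these data known. Spike-in rows were not used because they did not line up with the wells. Replicate numbers in the mesoderm series did not pair the samples, since deviations of same-numbered libraries correlated between -0.18 and 0.27 (median 0.01, 6 of 66 pairs above 0.1). Of the listed genes, 13 were not in the kept single-cell table. The endoderm series was not analysed here.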

Additional observations from a re-analysis of the deposited data

Results flagged for a closer look

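The bulk EB sample of J1 on day 7 lay far above the other 5 lines of that day for 8 of 9 red cell genes looked at, by Dixon's test of the gap to the nearest sample. The values in J1 were 2624 CPM for Hba-x, 3214 for Hbb-bh1, 503 for Hbb-y, 385 for Hba-a1, 616.3 for Hba-a2, 101 for Hbb-bs, 38.7 for Gata1 and 42.97 for Klf1. Tal1, at 82.0 CPM, was not singled out. Chance marks about 1 in 20 such groups, and these genes come from the same 6 samples.

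Globin UMIs were also found in wells that the authors did not keep, which the comparisons above did not use. The wells of WT day 10 that were not kept held 1052 globin UMIs (1.82% of their UMIs), and 25 of them had at least 10. Those of Mtf2 null day 10 held 160, those of Jarid2 null day 10 held 116 and those of Eed null day 10 held 4. On day 7 the numbers were 74 for WT and 13 for Mtf2 null. The wells of day 0 that were not kept held 0. Of the WT day 10 wells not kept with at least 100 UMIs, 6 of 151 had a globin share above 5%. Whether these wells held cells like those of cluster 18 or free RNA was not tested.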

How the results depend on the processing

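The counts of genes higher or lower in cluster 18, against all other cells, the same libraries, cluster 19 and cluster 4 in that order, were 1380, 1473, 1441 and 1536. They became 3039, 2998, 3349 and 3067 with a log2 limit of 1, 687, 734, 782 and 868 with a minimum of 30 UMIs, and 713, 755, 941 and 933 after thinning to 2500 UMIs, where fewer genes could pass. Leaving out 1 library gave 912 to 1372, 920 to 1522, 1042 to 1505 and 1068 to 1570, each time lowest without WT day 10. The globin share ran from 7.76% to 9.16% when 1 library was left out. Without finer cluster 41, added after seeing the data, the counts were 1173, 1280, 1401 and 1376, of which 278, 225, 273 and 283 were higher, and Cd34 (-0.77 and, within libraries, -1.15), Tie1 (-0.67 and, against cluster 4, -0.49) and Spi1 (-1.26, against cluster 19) turned to lower. Without the 4 day 7 cells labelled Mtf2 null the counts were 1358, 1473, 1327 and 1496 and the globin share was 8.99%. With wells of at least 500 genes as denominator, the day 10 shares were 27.3% for WT, 8.31% for Mtf2 null, 3.17% for Jarid2 null and 1.41% for Eed null.

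In bulk EBs, 4959 to 7399 genes passed over all alternatives (5352 to 6976 without 1 line), against 7012. In the mesoderm series, 1587, 1252 and 31 genes passed for WT over time, Mtf2 null and Jarid2 null. A log2 limit of 2 gave 515, 6.1e+02 (310 higher, 297 lower) and 2, and DESeq2 gave 1441, 1130 and 43. With no filter Jarid2 null gave 147 (75 higher, 72 lower), for which the cause was not tested. Leaving out 1 library, with the lone duplicate assumed to vary like the other groups, gave 1058 to 1610, 876 to 1140 and 10 to 23, with 16 and 10 for Jarid2 null without its replicates 1 and 2 and 14 without WT replicate 1. A replicate block gave 1551, 1210 and 28, so that this paired fit moved no count by over 1.5 times. In bulk EBs the line was the block, without which 4959 genes passed, and 6226 passed without the day 0 samples labelled Mtf2 null and Jarid2 null, added after seeing the data. Depth left 8 cells of cluster 18 under 2500 UMIs, of which 6 were WT day 10, and Eed null values rest on 3 cells.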

Other observations

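Genes of yolk sac and gut endoderm and of neural ectoderm were scarce in cluster 18. Against the other cells of the same libraries, 6 of 7 endoderm genes and 5 of 7 neural genes that passed the UMI minimum were lower, beside 11.0% of all genes. Apoe, which carries lipids, stood at 127 CPM against 409 CPM, and Sox11 at 54.3 CPM against 705 CPM.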
